A study of Mus musculus with 9 samples.

Results

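The comparison described here is that of epididymal fat from mice that ate a high fat diet and drank water with 2% mannose (HFDM) against epididymal fat from mice fed a normal diet (ND). It rests on 6 of the 9 arrays of the study, 3 mice on each diet, and on the 19722 of 45281 probes (43.6%) with a detection p under 0.05 on at least 3 of these 6 arrays. All mice were of the C57BL6/J strain, were aged 16 weeks and had been put on their diet at weaning. The 3 remaining mice received the high fat diet without mannose (HFD). They share in the estimate of the spread, and their values are given beside those of the other diets. Total RNA of the whole fat pad was hybridised to single-colour Illumina bead arrays. Levels are normalized log2 intensities, on which a difference of 1 is a 2-fold difference.

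Epididymal fat is the fat pad that lies against the epididymis and testis of the male mouse. Its fat cells store triglyceride, and they also make fatty acids from sugar through the enzymes of fat synthesis. On a high fat diet this pad enlarges, its fat synthesis genes are generally expressed less, and macrophages gather in it. Mannose is a sugar that cells convert to mannose 6-phosphate, either for glycolysis after isomerisation or for building the N-glycans of secreted and membrane proteins. The question of the comparison is how the fat of mannose-drinking mice on a high fat diet differed from that of mice on a normal diet, and how large a difference could have been missed with 3 mice on each.

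No probe passed the test between HFDM and ND. In limma's moderated test with Benjamini-Hochberg adjustment, 0 of 19722 probes (0%) had an adjusted p under 0.05, and the smallest adjusted p was 0.948. An unadjusted p under 0.05 was found for 780 probes, 274 higher in HFDM (1.39%) and 506 lower (2.57%). This balance of directions was not stable. The higher probes were 309 of 544 with median scaling in place of quantile normalization, 286 of 488 without HFDM 1 and 843 of 1478 without HFDM 2. The 3 values of HFDM lay wholly above those of ND for 515 probes (2.61%) and wholly below for 1095 (5.55%). Counted by genes, with 1 probe each, HFDM lay wholly above ND for 289 of 11212 genes (2.58%) and wholly below for 646 (5.76%). In the same fit, 292 probes (1.48%) were called between HFD and ND and 64 (0.325%) between HFDM and HFD, and all these comparisons share mice. The count for HFD and ND rested on few mice as well: it was 14, 21 and 44 without HFD 3, HFD 2 and HFD 1, 39, 155 and 226 without ND 2, ND 3 and ND 1, and 19 with the replicate number as a block. It was 1505 with array weights. Calls of single genes between HFD and ND are those of the fit to all mice. By genes, 1.35% were called higher and 0.446% lower in HFD than in ND. The probes called between HFD and ND differed by at least 0.79 in log2 and by a median of 1.60. A p that missed the threshold does not show that HFDM and ND fat were alike.

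The tissue was fat on every array by its defining genes. Of 14 adipocyte genes on the array, 13 or 14 were detected in each of the 9 mice. Adiponectin (Adipoq), the main hormone secreted by fat cells, lay at 15.47, 15.72 and 15.47 in ND mice 1 to 3 and at 15.61, 15.60 and 15.46 in HFDM mice 1 to 3. These values overlapped, and the difference was 0.01 with a 95% interval of -0.39 to 0.40. Leptin (Lep), the satiety hormone of fat, differed by 0.11 (-0.25 to 0.48), and both genes lay near the top of the intensity scale. The hormone resistin (Retn) differed by -0.21 (-0.89 to 0.48). The probe of the fatty acid binding protein Fabp4 had a low level, from 5.26 to 7.38, and differed by 0.83 (-0.15 to 1.80).

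Several arrays also carried genes of male reproductive organs, and these arrays do not follow diet. Protamine 1 (Prm1), which packs the DNA of sperm heads, lay at 9.44, 14.77 and 13.36 in the ND mice, at 15.63, 8.43 and 14.56 in the HFDM mice, and at 7.70, 7.09 and 14.53 in the HFD mice. ND 2, ND 3, HFDM 1 and HFDM 3 were thus high and ND 1 and HFDM 2 low, and the groups overlapped. Of 8 testis germ cell markers, all 8 were detected on ND 2, ND 3, HFDM 1, HFDM 3 and HFD 3, 4 on ND 1 and HFDM 2, and 1 on HFD 1 and HFD 2. Their mean level was 6.16 to 11.25 in ND and 5.77 to 12.80 in HFDM. Among 10 epididymis markers, 7 were detected on ND 3 and 1 to 3 on each of the other ND and HFDM arrays. Svs4 and Svs5, secretory proteins of the seminal vesicle, were high in ND 2 and HFDM 2. Svs4 lay at 4.90, 15.94 and 6.95 in ND and at 5.19, 13.06 and 5.47 in HFDM. HFDM 3 carried a high level of thermogenic fat genes, described with that list. In bulk tissue, fewer cells of a type and less RNA of a gene per cell cannot be told apart.

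**Figure D1:**
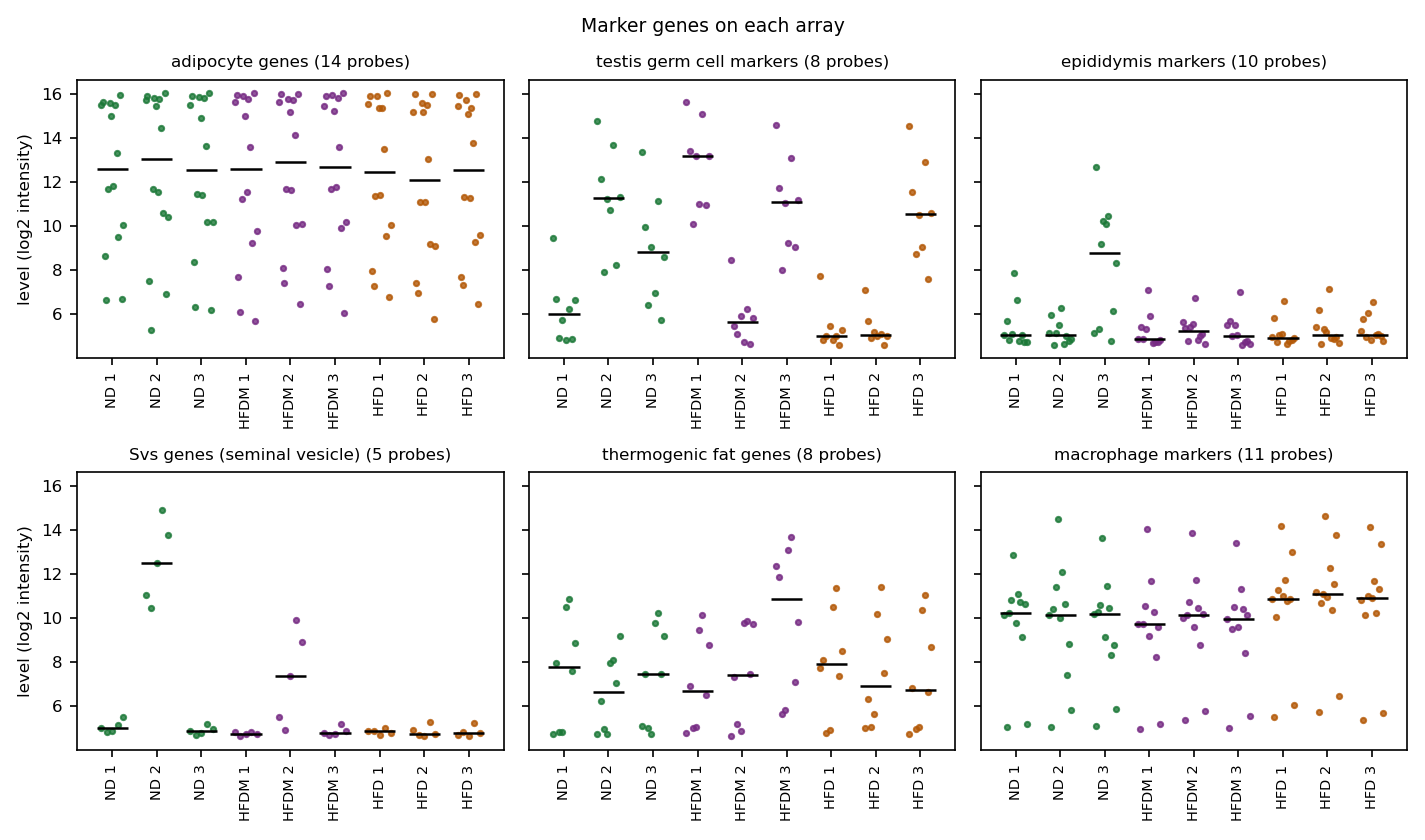
Level (log2 intensity) of marker genes on each of the 9 arrays, with 1 point per probe, the black line at their median and colour by diet; probes that did not pass the detection filter are included. The adipocyte genes have similar medians on all arrays, whereas the testis markers are high on ND 2, ND 3, HFDM 1, HFDM 3 and HFD 3. The epididymis markers are high on ND 3, and part of the thermogenic genes on HFDM 3. The Svs genes are high on ND 2 and in part on HFDM 2, where they lie at 4.94 to 9.94. The Svs probes shown, which do not include Svs4 and Svs5, did not pass the detection filter. They were picked for 1 array at least 3 (log2) above the other 5 of ND and HFDM. A peak on 1 array was thus built in.

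Probes that followed the testis markers made up much of the large differences between the diet means. A difference of at least 2-fold was seen for 661 probes, 603 higher and 58 lower in HFDM. This count rested on single mice, as it was 186 without HFDM 1, 1227 without HFDM 2 and 1133 without ND 2. A set of 490 probes (2.48%) followed the testis markers within diets, with a correlation over 0.9 across the arrays and a standard deviation over 1. Of the 603 higher probes, 363 belonged to it. Counted in either direction, 12 of the 490 were at least 2-fold apart without HFDM 1, and 87 without ND 1. The median standard error of the 490 was 1.29 against 0.261 for the other 19232 probes, and 1 of the 490 had an unadjusted p under 0.05. A wide spread over the 9 arrays, and variation within diets that followed the markers, were part of the rule that chose these 490. Of the other probes, 298 differed by at least 2-fold, 240 higher and 58 lower. A fit that took the mean testis marker level as a covariate was added once the data had been seen. In it the number of probes at least 2-fold apart was 255, none was called, 1031 had an unadjusted p under 0.05, of which 606 were higher, and the smallest adjusted p was 0.269.

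**Figure D2:**
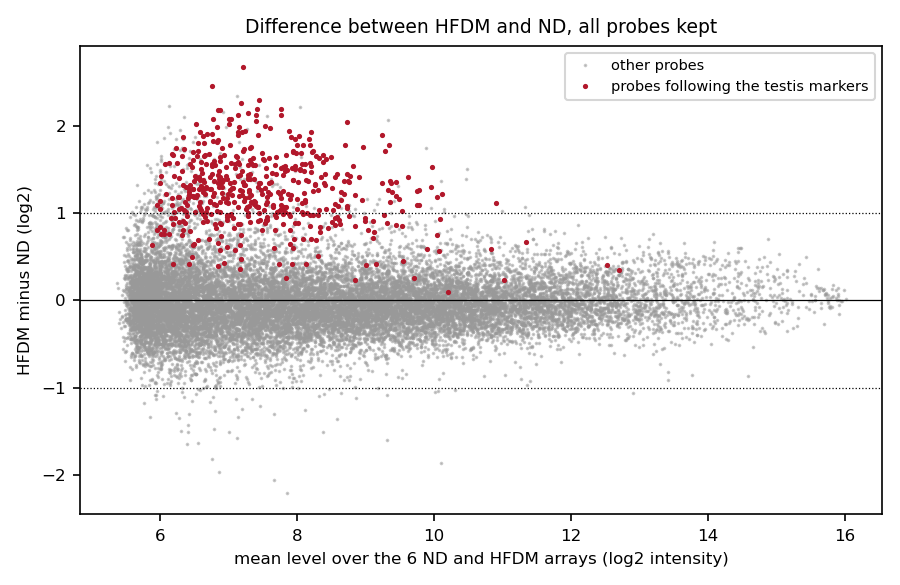
Difference between the HFDM and ND means (log2) against the mean level over the 6 arrays for each of the 19722 probes; dotted lines mark 2-fold, and red points are the 490 probes that followed the testis markers. The red points lie above 0 and make up 363 of the 603 probes at least 2-fold higher in HFDM.

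The gene with the smallest p was Cyp2f2 (probe ILMN_2702903), a cytochrome P450 known best from the airways. It lay at 11.07, 11.37 and 10.68 in ND, at 9.12, 8.91 and 9.49 in HFDM and at 6.97, 7.44 and 7.80 in HFD. Every HFDM mouse lay below every ND mouse and above every HFD mouse. The difference between HFDM and ND was -1.87 ± 0.28 (SE, n = 3 mice per diet), with a 95% interval of -2.50 to -1.24. Its unadjusted p was 8.9e-05 and its limma adjusted p 0.948. In the same fit Cyp2f2 was called between HFD and ND, at -3.64 with a limma adjusted p of 0.00231, and between HFDM and HFD, at 1.77 with a limma adjusted p of 0.0437.

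Slc5a7 (ILMN_1243388), the choline transporter of cholinergic nerve endings, was the gene with the smallest p among those higher in HFDM. It lay at 5.79, 5.38 and 6.69 in ND, where it was detected on 1 array, at 7.96, 8.21 and 8.71 in HFDM and at 10.64, 11.35 and 10.43 in HFD. As with Cyp2f2, the 3 diets did not overlap and HFDM lay between the others. The difference between HFDM and ND was 2.34 ± 0.38 (95% interval 1.48 to 3.20) and did not pass adjustment. HFD differed from ND by 4.86 (limma adjusted p = 0.00231), and HFDM from HFD by -2.52 (limma adjusted p = 0.0426).

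Sfrp5 (ILMN_1232779), a secreted inhibitor of Wnt signalling that is made by growing fat cells, lay at 8.34, 7.48 and 9.08 in ND and at 10.06, 10.86 and 10.17 in HFDM. The groups did not overlap, and the HFD mice lay at 11.77, 10.75 and 11.08. The difference between HFDM and ND was 2.06 ± 0.43 (1.09 to 3.04) without passing adjustment, and that between HFD and ND was 2.90 (limma adjusted p = 0.0225). Sfrp5 stands in a list of 7 genes of fat expansion, of which 6 were higher and 1 lower in HFDM with a median of 0.29, and it was the only one of them at an unadjusted p under 0.05. The imprinted gene Mest, whose level in fat tracks the growth of the pad, lay at 11.05, 10.78 and 10.84 in ND and at 10.87, 11.11 and 11.92 in HFDM. These overlapped, and the difference of 0.41 had an interval of -0.26 to 1.09. Mest was called between HFD and ND, at 1.74. Nnat and Npr3, the latter the clearance receptor for natriuretic peptides, differed by 0.25 (-0.76 to 1.26) and 0.29 (-0.21 to 0.79).

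Peg3, an imprinted gene for a zinc finger protein, lay at 9.5, 8.57 and 8.97 in ND and at 10.30, 10.93 and 11.04 in HFDM. Its groups did not overlap, and its second probe, detected on no ND array and on all HFDM arrays, was at least 2.47-fold higher. Here and below, such a bound is on the measured means and leaves out the spread between mice. The difference of the first probe was 1.74 ± 0.37 in HFDM and 1.70 in HFD, each against ND, and neither passed adjustment. Hspb7, a small heat shock protein of muscle, differed by 2.21 ± 0.37, from 7.33, 6.26 and 7.22 in ND to 8.56, 9.79 and 9.10 in HFDM. It was called between HFD and ND, at 2.22 (limma adjusted p = 0.0296), and between HFDM and HFD the difference was -0.01. Thbs2, a matrix protein of the thrombospondin family, differed by 1.21 ± 0.23, and Unc79, a subunit of the sodium leak channel complex, by 1.55 ± 0.33. Unc79 was called between HFD and ND as well, at 2.14.

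The remaining probes of smallest p on the higher side had low levels, most of them below detection in ND. Atp2a3, a calcium pump of the endoplasmic reticulum, was detected on no ND array by its first probe and was at least 1.73-fold higher in HFDM. By that probe Atp2a3 was called higher in HFD than in ND (limma adjusted p = 0.0312), and HFDM differed from HFD by -0.23. Its other probes were well detected, lay at means of 11.37 and 9.63 in ND, and differed by 0.79 and 1.02, so all 3 probes of Atp2a3 were higher with no overlap. Crebbp, a histone acetyltransferase and coactivator, was at least 1.42-fold higher, and ghrelin (Ghrl), the stomach hormone of appetite, at least 1.59-fold higher. Gatad2b, a subunit of a chromatin remodelling complex, differed by 1.12 by one probe and by 0.17 by its other probe, where the groups overlapped.

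On the lower side, Tkt and Insig1 belong to sugar and lipid metabolism. Transketolase (Tkt), an enzyme of the pentose phosphate pathway, lay at 13.06, 13.58 and 13.67 in ND and at 12.10, 12.27 and 12.76 in HFDM, without overlap. The difference was -1.06 ± 0.24, and the other probes of Tkt gave -0.56 and -0.86 with overlapping groups. Tkt was called between HFD and ND, at -1.25 (limma adjusted p = 0.043). Insig1, which holds the lipid regulator SREBP in the endoplasmic reticulum, differed by -1.08 ± 0.23 by a probe at 9.38, 10.24 and 9.94 in ND and 8.80, 8.64 and 8.87 in HFDM. Its other probes each gave -0.33 with overlapping groups, so the probes of Insig1 disagree in size.

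Other genes of smallest p on the lower side were Ifrd2 (-1.49 ± 0.28), Ttc14 (-0.94 ± 0.18) and A830018L16Rik (-0.89 ± 0.20). Ttc14 rests on 1 probe, as its other probes gave 0.09 and 0.10. Timm22, a channel for protein import into the mitochondrial inner membrane, was detected on no HFDM array and was at least 1.26-fold lower. Alx4, a homeobox factor, was at least 1.60-fold lower, again with no detection in HFDM. For Bcam, a laminin receptor, one probe was undetected in HFDM and at least 1.57-fold lower. A second, well detected probe of Bcam differed by -0.45, from a mean of 8.49 in ND to 8.04 in HFDM, with overlapping groups. The unnamed probe ILMN_1220621 was at least 1.51-fold lower.

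**Figure D3:**
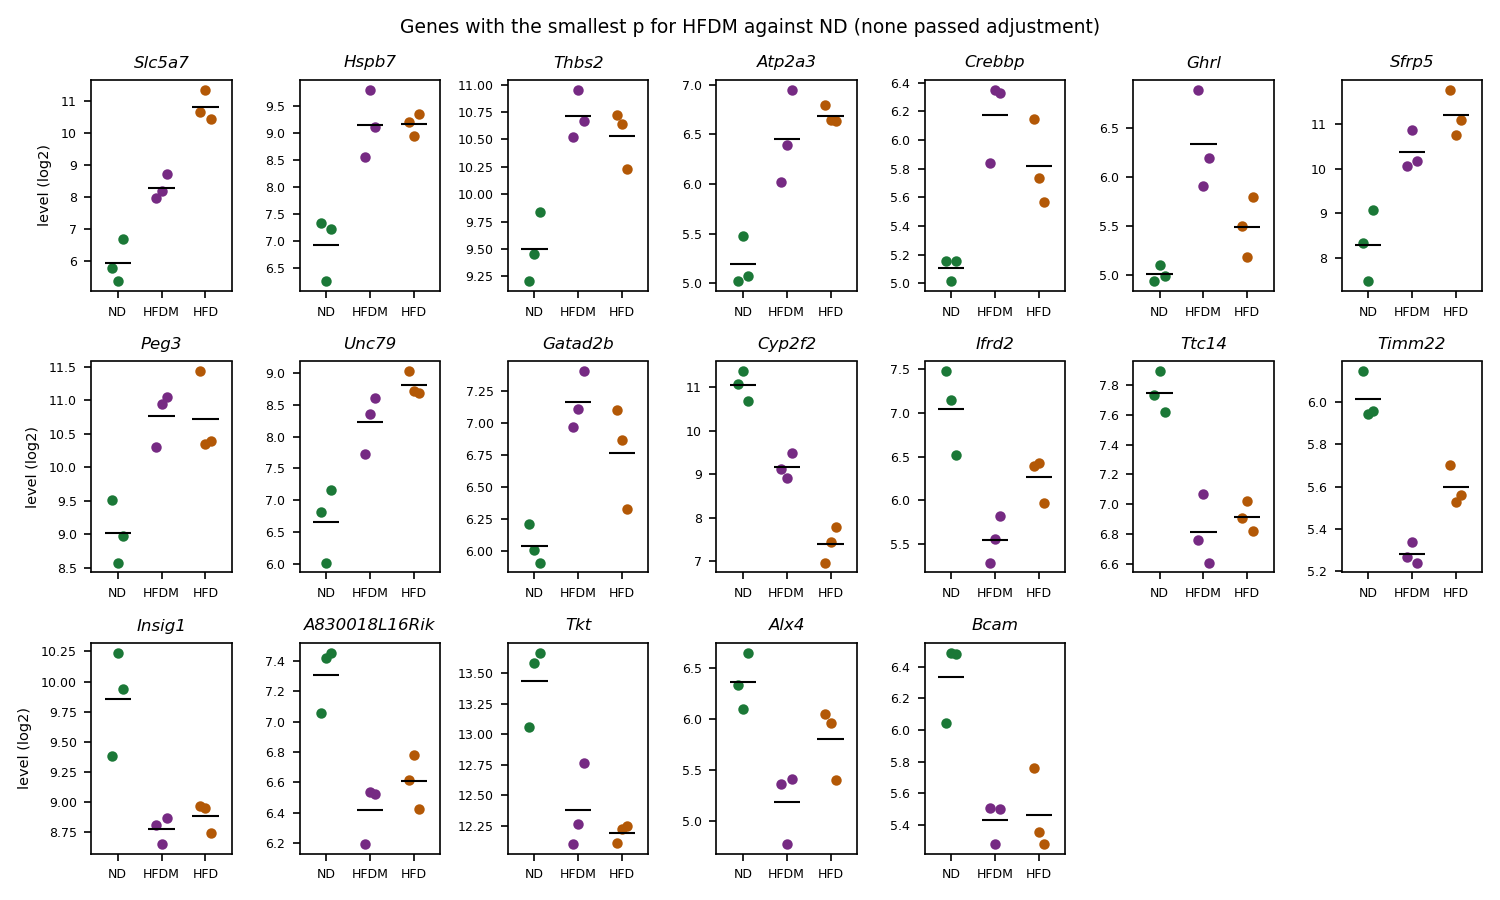
Level (log2 intensity, a separate axis per panel) of the 19 genes of smallest p whose HFDM and ND values did not overlap, with 1 point per mouse and the black line at the mean of each diet. None passed adjustment between HFDM and ND; in Cyp2f2 and Slc5a7 the HFDM mice lie between the ND and HFD mice, and in Hspb7 and Peg3 they lie at the level of HFD.

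Detection on all arrays of one diet and none of the other gave 42 probes present in HFDM and 67 present in ND, of 19722 kept. Such a probe passed the detection filter only through the diet in which it was detected. This holds as well for the probes of smallest p that are given with a bound. Of the 42, the bound reached 2-fold for 3, namely the unnamed probes ILMN_2451103 (at least 2.98-fold) and ILMN_1233413 (at least 2.64-fold) and the second probe of Peg3. ILMN_2451103 lay at 7.46, 8.39 and 5.87 in HFDM and at 4.71, 5.0 and 5.34 in ND, and it was also high on 1 HFD array, at 8.47. Of the 67 present in ND, none had a bound of 2-fold. Among the largest measured differences were those of Alx4, ILMN_1220621, the T cell adaptor Skap1 (at least 1.55-fold lower in HFDM) and the sperm flagellar protein Spef1 (at least 1.45-fold).

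By count, though not by share, fat synthesis genes were the list with the most members at an unadjusted p under 0.05. Of 14 genes, 13 were lower and 1 higher in HFDM, with a median of -0.47, against a median of -0.03 and 6134 lower of all 11212 genes tested. Fasn, Elovl6 and Me1 had an unadjusted p under 0.05, 3 of 14 where 2.48% of all genes were lower at that threshold. Of the 14, 0 passed adjustment. The share at that threshold was larger in the lists of endothelial markers (2 of 6) and endoplasmic reticulum stress (2 of 7). Fatty acid synthase (Fasn, ILMN_2874104), which builds palmitate, lay at 7.68, 8.61 and 8.24 in ND and at 6.55, 7.39 and 7.67 in HFDM. All HFDM mice lay below all ND mice, by a narrow margin between ND 1 and HFDM 3. The difference was -0.97 ± 0.33 (95% interval -1.72 to -0.23), and in HFD it was -0.72 against the same ND mice. For the median of the list the order was the other way, at -0.89 in HFD and -0.47 in HFDM, each against ND.

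Me1, the malic enzyme that supplies NADPH for fatty acid synthesis, lay at 11.49, 12.32 and 11.76 in ND and at 10.79, 10.67 and 11.33 in HFDM. These did not overlap, and the difference was -0.93 ± 0.28 (-1.56 to -0.29). Elovl6, which lengthens palmitate, lay at 9.95, 11.15 and 11.37 in ND and at 9.41, 9.49 and 10.48 in HFDM. HFDM 3 lay above ND 1, and the difference was -1.03 ± 0.41 (-1.97 to -0.09). ATP citrate lyase (Acly) differed by -0.86 (-1.80 to 0.07), and acetyl-CoA carboxylase 2 (Acacb) by -0.37 (-1.0 to 0.25). Acacb was the one gene of the list called between HFD and ND, at -1.46. The desaturase Scd1, near the top of the intensity scale, differed by 0.05 (-0.30 to 0.40). The median of the list was -0.72 without HFDM 3, with 5 genes lower at an unadjusted p under 0.05, and -0.44 with the testis marker covariate, with 4.

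The promoter of Fasn is shown because it is the reference case for control of fat synthesis by the factors SREBP-1, ChREBP and NF-Y. It covers 250 bases before to 50 bases after the start, on the minus strand at chr11:120824498-120824797 of GRCm38.p6, from RefSeq, with matches to CCAAT on either strand in capitals.
Fasn promoter: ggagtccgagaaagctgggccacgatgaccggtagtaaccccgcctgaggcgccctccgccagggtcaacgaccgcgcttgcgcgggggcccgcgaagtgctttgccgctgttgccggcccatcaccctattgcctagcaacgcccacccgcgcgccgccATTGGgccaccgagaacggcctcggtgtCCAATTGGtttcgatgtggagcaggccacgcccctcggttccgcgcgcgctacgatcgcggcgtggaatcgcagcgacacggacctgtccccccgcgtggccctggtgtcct
It holds 3 matches to CCAAT, of which 2 overlap on opposite strands. Promoters were found for 11 of the 14 genes, 16 promoters in all. CCAAT was in 10 of the 16 (62.5%), against 37.4% of all 32851 mouse promoters of this length. The sterol response element TCACNCCAC was in 1 of the 16 (6.25%), that of Mlxipl, against 1.24% of all, and the E-box CACGTG was in the same one (6.25%), against 7.15%. A match is a run of letters and not a binding site.

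Genes of mannose use and N-glycan assembly lay on both sides of 0, from -0.61 for the mannosidase Man1a to 0.53 for Dpm3, a subunit of the dolichol phosphate mannose synthase. Of 25 genes, 9 were higher and 16 lower in HFDM with a median of -0.03, and 0 had an unadjusted p under 0.05, where 3.77% of all genes did. Phosphomannose isomerase (Mpi), which turns mannose 6-phosphate into fructose 6-phosphate, lay at 9.999, 9.83 and 9.82 in ND and at 10.55, 9.82 and 9.82 in HFDM. HFDM 1 was the highest and the others overlapped. Its difference was 0.18, and the 95% interval of -0.40 to 0.75 leaves out a 2-fold difference in either direction. The phosphomannomutases Pmm2 and Pmm1, which start the route to N-glycans, differed by 0.10 (-0.27 to 0.48) and -0.03 (-0.52 to 0.47). Gmppa, a regulatory subunit of the enzyme that makes GDP-mannose, differed by 0.11 (-0.40 to 0.61). For 20 of the 25 genes (80%) the interval lay within 2-fold, against 70.4% of all genes. The 5 others include Dpm3, Hk1 and Man1a, whose intervals reached 1.70, 1.49 and -1.82.

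**Figure D4:**
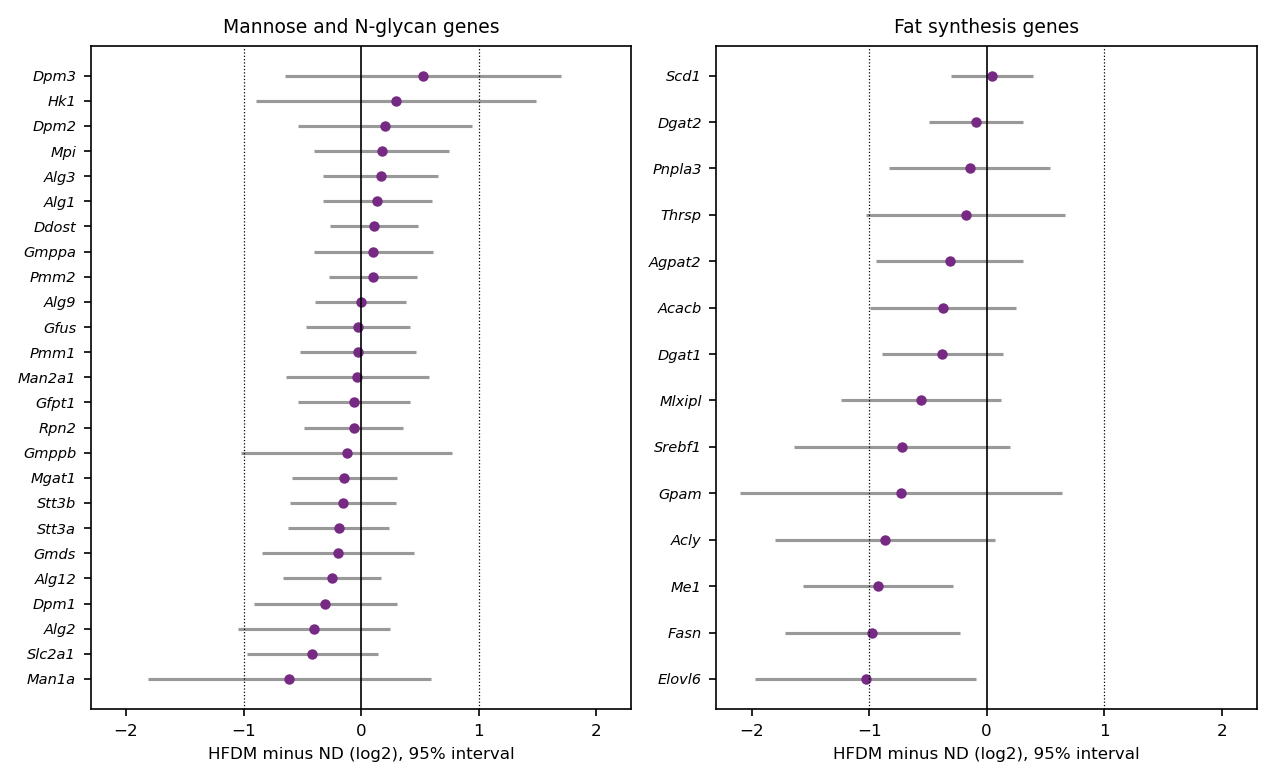
Difference between the HFDM and ND means (points, log2) with its 95% interval (lines) for the 25 mannose and N-glycan genes and the 14 fat synthesis genes; dotted lines mark 2-fold. The mannose and N-glycan genes lie on both sides of 0, and 13 of the 14 fat synthesis genes lie below it, 3 with intervals that leave out 0.

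Genes of inflammation had wide intervals. Ccl2, the chemokine that draws monocytes, lay at 5.91, 5.83 and 7.36 in ND, at 6.56, 6.77 and 6.63 in HFDM and at 8.73, 9.92 and 9.58 in HFD. ND and HFDM overlapped, and every HFD mouse lay above both. HFDM differed from ND by 0.29 (-0.69 to 1.27), and HFD from ND by 3.04 (limma adjusted p = 0.0200). The related chemokines Ccl4, Ccl5 and Ccl7 differed between HFDM and ND by -0.27, -0.31 and 0.43. Of the 7 chemokine and cytokine genes, 0 had an unadjusted p under 0.05, the median was 0.29, and the interval of 1 lay within 2-fold. The acute phase protein Saa3, named after its values were seen, lay at 8.21, 8.0 and 8.74 in ND and at 8.94, 8.59 and 9.07 in HFDM. The groups overlapped between ND 3 and HFDM 2, and the difference of 0.55 had an interval of -0.22 to 1.33. HFD mice lay at 12.35, 13.52 and 12.39.

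Of 9 macrophage markers, 4 were higher and 5 lower in HFDM with a median of -0.19, none had an unadjusted p under 0.05, and 6 had intervals within 2-fold. The HFDM values of 3 of the 9, Adgre1, Cd14 and Cd163, lay wholly below those of ND, as did those of 5.76% of all genes. Adgre1 (F4/80), the classical surface marker of mouse macrophages, differed by -0.26 (-0.65 to 0.13), Cd14 by -0.51 (-1.04 to 0.02) and the scavenger receptor Cd163 by -0.23 (-0.66 to 0.20). The receptor Csf1r differed by -0.35 and lysozyme (Lyz2) by 0.10. Gpnmb and Trem2, markers of lipid-laden macrophages named after their values were seen, had intervals of -0.52 to 1.62 and -0.71 to 1.11. They were called between HFD and ND, at 3.96 and 2.95. The 2-fold level thus stayed within the HFDM interval of both genes, while the size of the HFD difference did not.

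Thermogenic genes mark heat-producing, brown-like fat cells, and 3 of the 5 kept were far higher in HFDM 3 than in any other mouse. Cidea, a lipid droplet protein of brown fat, lay at 7.96, 6.22 and 7.48 in ND and at 6.90, 7.33 and 11.88 in HFDM. HFDM 3 stood apart and the other HFDM mice lay within the range of ND. Cox7a1 and Cox8b, subunits of cytochrome c oxidase in brown fat and muscle, were also highest in HFDM 3, at 13.11 and 13.70. Cidea differed by 1.48 with an interval of -1.19 to 4.15. Of 5 genes kept, 0 passed, and their median difference was 1.37, which became 0.19 without HFDM 3. Prdm16, a regulator of brown fat identity, lay at 7.08 in HFDM 3, below 2 of the ND mice, and differed by -0.37. Ppargc1b, a coactivator of mitochondrial genes, lay at 8.88, 9.21 and 9.17 in ND and at 8.80, 9.74 and 9.84 in HFDM, so HFDM 2 and HFDM 3 lay above ND and HFDM 1 below. Cpt1b, the muscle form of the carnitine transferase for fatty acid entry into mitochondria, was highest in HFDM 3 as well, at 11.25, whereas Cpt2, Acadm and Acadl of fatty acid oxidation differed by -0.23, -0.15 and -0.01. Whether another tissue in this sample gave these values was not tested.

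Insulin response genes had a median of 0.00, and none of 9 had an unadjusted p under 0.05. The insulin receptor (Insr) differed by 0.00 (-0.46 to 0.47), its substrates Irs1 and Irs2 by 0.09 and 0.18, and the kinase Akt2 by -0.01. The sterol enzymes Sqle, Idi1, Fdps and Cyp51 differed by -0.31, -0.44, 0.11 and 0.07, and none of 7 cholesterol synthesis genes had an unadjusted p under 0.05 by the 1 probe that stands for each. Insig1 is among these 7 by a probe at -0.33, not by the one of smallest p. In the list of endoplasmic reticulum stress, 2 of 7 genes were lower at an unadjusted p under 0.05, where 2.48% of all genes were. These were the chaperones Hspa5 (-0.75, -1.48 to -0.02) and Dnajb9 (-0.56, -1.05 to -0.07), while Ddit3, Atf4 and Xbp1, transcription factors of the stress response, differed by 0.43, -0.01 and -0.32.

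Collagen III (Col3a1) was the one of 10 matrix genes at an unadjusted p under 0.05. It lay at 10.35, 10.44 and 10.08 in ND and at 9.51, 9.66 and 10.04 in HFDM, without overlap but with ND 3 and HFDM 3 adjacent, a difference of -0.55 ± 0.20. The collagen I chains Col1a1 and Col1a2 differed by 0.20 and 0.01, and Col6a1 by 0.41. Of 6 endothelial markers, 5 were lower in HFDM, with a median of -0.31. Pecam1, an adhesion molecule between vessel wall cells, and Emcn, a sialoglycoprotein of capillaries, were the 2 of 6 lower at an unadjusted p under 0.05, against 2.48% of all genes, by -0.60 (-1.12 to -0.07) and -0.55 (-0.98 to -0.11). Cdh5, Tek and Kdr differed by -0.25, -0.14 and 0.24. None of these genes passed adjustment. The interferon genes Ifit3, Isg15 and Irf7 differed by -0.18, 0.17 and -0.36, and the cell division genes Top2a, Cdk1 and Birc5 by 0.80, 0.18 and 0.26. No gene of the T cell, B cell, red cell, mesothelial, skeletal muscle and smooth muscle marker lists had an unadjusted p under 0.05.

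How large a difference could be missed was measured from the standard error of each probe. The median standard error of HFDM minus ND was 0.264, and the median 95% interval reached 0.60 to either side, a 1.51-fold difference. For 13593 probes (68.9%) the interval lay within 2-fold, so that a 2-fold difference in either direction lay outside it. For 93.9% it lay within 4-fold, which leaves 1194 probes for which a 4-fold difference was within the interval. Of the 490 probes that followed the testis markers, 0 had an interval within 2-fold. They were chosen by variation within diets and a standard deviation over 1, so wide intervals were built in.

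The difference needed for a call was larger than these intervals. A call has to pass adjustment over 19722 probes, and the difference given is the one called with 80% power. If 1 probe in 100 were called, the unadjusted p needed is 0.0005, and a true difference of 1.71 (median over probes, 3.27-fold) would be called with 80% power. The quartiles of this detectable difference were 1.39 and 2.17. It was below 2-fold for 46 probes (0.233%) and below 4-fold for 67.6%. If only a single probe differed, the p needed is 2.54e-06, and the median detectable difference was 3.26, a 9.59-fold difference. Fasn would have needed a difference of 2.13, Mpi of 1.64, Ccl2 of 2.82 and Cidea of 7.65 when 1 probe in 100 is called.

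**Figure D5:**
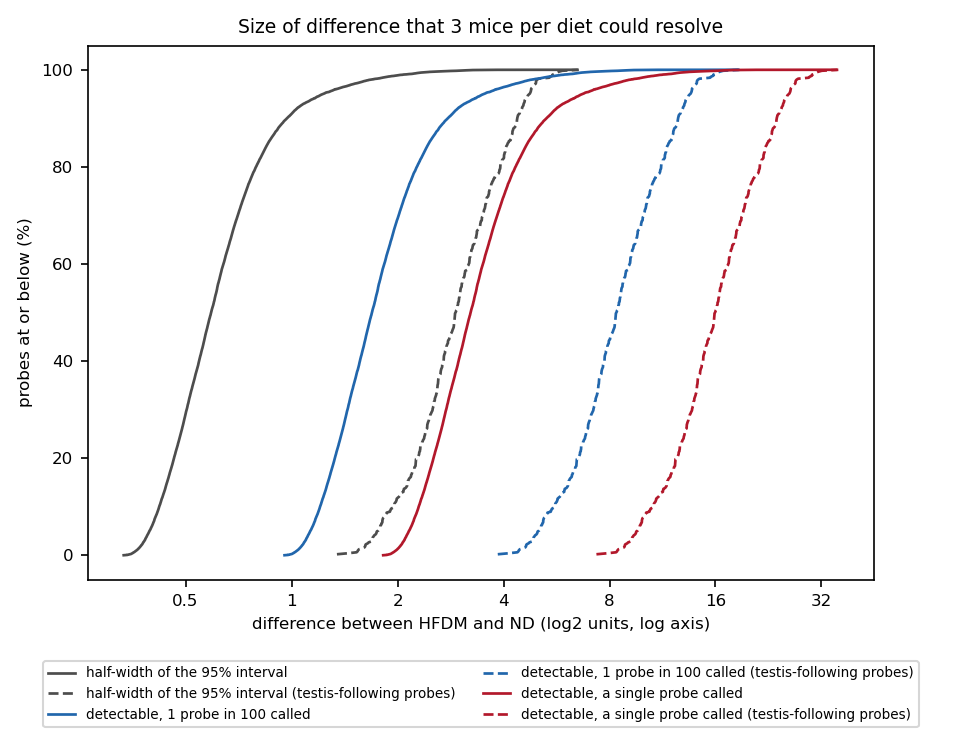
Share of probes (%) whose 95% half-width, or whose detectable difference at 80% power, is at or below the value on the x axis (log2 units, log axis); solid lines are the 19232 probes that did not follow the testis markers and dashed lines the 490 that did. The solid lines reach 50% at about 0.6, 1.7 and 3.2. All dashed lines lie to the right of their solid counterparts, as the 490 probes were chosen by a wide spread.

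Precision depended on the level of a probe, shown here for 4 classes of equal size. In the lowest class, below a level of 6.57, the median detectable difference was 2.01 and 54.4% of intervals lay within 2-fold. In the second class these were 1.90 and 58.1%, in the third 1.56 and 77.2%, and in the highest, above 9.99, they were 1.41 and 85.9%.

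The numbers of detected probes did not separate the diets. They were 18390, 20903 and 19214 in ND and 20437, 18517 and 19000 in HFDM. The means were 19502 ± 1281 and 19318 ± 999 (SD, n = 3), with a two-sided exact permutation p of 0.8, where 0.1 is the smallest that 3 mice against 3 allow. Across probes, arrays of ND and HFDM correlated at 0.874 to 0.974, arrays within ND at 0.901 to 0.954 and arrays within HFDM at 0.878 to 0.963. These are correlations over probes of the same arrays and describe the arrays alone.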

How the data were processed

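Epididymal fat RNA of 9 mice (3 per diet, grouped by sample title) was measured on single-colour Illumina arrays. The deposited table gives, per the file headers, an average intensity and a detection p-value for every probe on every array. The submitters' processing notes name GenomeStudio, without a version. Since 27.3% to 33.2% of the deposited intensity values on an array are negative, the background was already subtracted in them. A second deposited table holds normalized intensity values, used as an alternative.

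With R 4.3.3 and limma 3.58.1, the 9 arrays were corrected and normalized by neqc (offset 16, log2). Probes with a detection p under 0.05 on at least 3 of the 6 ND and HFDM arrays were kept. One model with 3 diet means covered the 9 arrays and left 6 residual and, after moderation, 8.98 degrees of freedom, and Benjamini-Hochberg adjustment ran over 19722 probes. The detectable difference is the noncentral t value at 80% power times the standard error. Fits were tested on simulated data. Nothing in the labels says more of how the mice were housed or which arrays shared a slide, so slide effects were not tested, and the number of arrays limits the precision.

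Gene names came from the platform annotation. Of 45281 probes, 34885 had 1 gene, 18 several and 10378 none, and 16868 kept probes named 11212 genes. In gene lists a gene stands by 1 probe; 58 of 168 list genes had several, none with opposed directions at an unadjusted p under 0.05. Named items are the 10 probes of smallest p with non-overlapping groups in each direction, the first 4 kept genes of each list with any at an unadjusted p under 0.05, and the 5 largest differences in each direction among probes detected in one diet only. For a probe undetected on all 3 arrays of a diet, the fold is a bound. It sets the brighter mean against, per array, the higher of its own signal and the lowest detected signal. This bounds the measured means and leaves out the spread between mice. Members and lists were chosen with earlier results of these data known. Alternatives covered background, normalization, filter, variance model, array weights, the replicate block, the deposited table and omission of each array. Those on testis markers were chosen after seeing the data. One item that the rule names is not reported here.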

Additional observations from a re-analysis of the deposited data

Results flagged for a closer look

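Among probes that did not pass the detection filter, 52 had 1 of the 6 ND and HFDM arrays at least 3 (log2) above the other 5. ND 1 held 23 of them, ND 3 held 17, ND 2 held 10, and HFDM 1 and HFDM 3 held 1 each. Ucp1, the uncoupling protein of brown fat, lay at 12.37 on HFDM 3 and at 4.63 to 5.12 on the other 5 arrays, and at 7.74 on HFD 1. Lcn8, a lipocalin of the epididymis, lay at 12.67 on ND 3 and at 5.38 to 5.94 on the others. Svs2, a seminal vesicle secretory protein, lay at 11.07 on ND 2. Nlrp6, an inflammasome sensor, lay at 9.31 on ND 1. Cypt2, a gene of the testis, lay at 8.42 on HFDM 1. None of these 5 probes entered the comparison, and each value describes a single array.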

How the results depend on the processing

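Of 25 alternatives, 21 planned and 4 chosen after seeing the data, 22 called 0 probes between HFDM and ND, as in the main analysis. Array weights called 1236 (430 higher, 806 lower), with weights of 4.26 on ND 3 and 5.64 on HFDM 3 against 0.295 to 0.653 on the other 4 arrays, so these calls rest mainly on ND 3 against HFDM 3. Without ND replicate 1 there were 2 calls (ILMN_2450117 and Mia, both highest on ND 1), and leaving out each of the 9 arrays gave 0 to 2. Without the 5 arrays with all testis markers, ND 1 against HFDM 2 alone gave 152 (16 higher, 136 lower), led by Svs4 and Svs5, and the lone arrays are assumed to vary like the others. The count at an unadjusted p under 0.05 ran from 488 (without HFDM replicate 1) to 6183 (array weights); it was 544 with median scaling, 2042 without ND replicate 1 and 1478 without HFDM replicate 2. The 20 probes of smallest p were chosen without overlap of HFDM and ND, so leaving out or weighting arrays could not turn their sign. With 8 list genes at an unadjusted p under 0.05 they make 28 probes. In each alternative that could be run (24 or 25), the sign was the same for all 28 probes. Of these, 22 passed with array weights and 1 in any other alternative, Hspb7 without the 5 arrays.

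The median detectable difference (1.71) was 1.39 at an offset of 50, 2.07 with the 6 arrays fitted alone (with or without their own normalization), 1.25 with no filter, 1.46 with a detection p under 0.01 on all 3 arrays of a diet, 1.04 with array weights, 1.06 in the deposited value table, 2.77 without the 5 arrays, 1.94 with the covariate and without HFDM 3, and 1.82 to 2.11 with 1 array left out. The share of intervals within 2-fold (68.9%) was, in the same order, 82.7%, 62.9% (own normalization), 63.1%, 83.7%, 79.1%, 80.8%, 90.2%, 27%, 60.8% and 55.6% to 66.8%. A larger offset compresses low levels and fewer arrays leave fewer degrees of freedom, by construction. For the deposited table the cause was not tested.

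With the replicate block, 0 probes were called and the detectable difference was 1.98. Deviations of ND and HFDM arrays of the same number correlated at -0.360, -0.523 and -0.003, and 0 of 6 arrays correlated best with their own number. No pairing of mice by number was seen in these values, which cannot show that there was none.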

Other observations

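On ND 1, 82 kept probes, with 64 named genes, lay at least 2 (log2) above every other array. They include Mia, Cdh16, Slc7a9 and Lrp2, genes of epithelia and cartilage chosen after their values were seen. Their median level was 9.86 on ND 1, 5.57 and 5.77 on ND 2 and ND 3, 5.36 to 5.47 on the HFD arrays, and 6.68, 6.64 and 6.32 on the HFDM arrays. For 33 of the 82, all 3 HFDM arrays lay above ND 2, ND 3 and all HFD arrays, an order that 305 of all 19722 kept probes (1.55%) had. Kept probes had to be detected on at least 3 of the 6 ND and HFDM arrays, and HFD arrays did not count. Among probes high on ND 1 this filter favours that order, so the 2 shares are not a like comparison. A further 23 probes, at least 3 (log2) higher on ND 1 than on the other ND and HFDM arrays, did not pass it. Cdh16, a cadherin of kidney epithelium, lay at 11.49, 5.12 and 5.66 in ND, at 8.11, 7.28 and 6.86 in HFDM and at 5.15, 5.47 and 6.09 in HFD. Mia lay at 11.99 on ND 1 and at 7.89, 7.95 and 7.42 in HFDM, against 4.76 to 5.43 on the other arrays. On HFDM 1, 180 probes stood apart in the same way, and on each of the other 7 arrays 0 to 7 did.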
